A study of Mus musculus with 4 samples.

Results

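The genes described here encode 9 receptors through which nerves and released ATP act on salivary gland cells. They are the muscarinic acetylcholine receptors Chrm1 and Chrm3, the adrenergic receptors Adra1a, Adra1b and Adrb1, the vasoactive intestinal peptide (VIP) receptor Vipr1, and the purine receptors P2ry2, P2rx4 and P2rx7. They were found by gene name among the non-control probes of a mouse expression array, where they had 15 of 55681 probes. A log2 difference could be tested for 8 of the 9 genes, of 17362 genes tested in all, and for 12 of the 15 probes. RNA came from cells of the submandibular gland, a major salivary gland, of C57BL/6 mice of 8 to 10 weeks. The cells were separated by fluorescence-activated sorting into stem cells and non-stem cell epithelia, with 2 one-colour arrays for each group. The labels name no genotype or treatment, and the sources used here do not give the sort markers. Whether the 2 arrays of a group hold separate animals or sorts is not given in the labels, so the spread behind the p-values may be technical.

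Salivary secretion is driven by both branches of the autonomic nervous system. Acetylcholine from parasympathetic endings acts on muscarinic receptors, mainly M3 and M1 in acinar cells, and noradrenaline from sympathetic endings acts on alpha-1 receptors. These couple to the Gq class of G proteins, which activates phospholipase C and releases calcium from stores, and the calcium signal opens the ion channels that drive fluid. Noradrenaline at beta-1 receptors and VIP at its receptor act through Gs and cyclic AMP, which is best known for the release of secretory proteins. ATP acts on P2Y receptors, which couple to G proteins, and on P2X receptors, which are themselves cation channels opened by ATP.

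The results turn on the following probes, because a log2 difference is measured only where the probe binds, and several genes had probes that differed from each other. Each probe has 60 bases. The first 2 lines below are the whole probes that match coding sequence of Adrb1 and P2rx7, and the others are the last 30 bases, 5′ to 3′ on the transcript strand. The capitals mark a polyadenylation signal hexamer, searched as AATAAA or ATTAAA on the transcript strand alone. It was in the probe of P2rx4 and in none of the other 14 receptor probes, and 13.7% of all probes on the array hold one of these hexamers.
Adrb1, chr19:56797242-56797301, + strand: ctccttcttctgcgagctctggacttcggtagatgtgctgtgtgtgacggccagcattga
P2rx7, chr5:123120528-123123413, + strand, across an intron: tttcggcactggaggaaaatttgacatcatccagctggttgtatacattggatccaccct
Adrb1, chr19:56799215-56799274, + strand: attgtaaaattcatagaagttgttaacttg
Chrm3, chr13:9875880-9875939, - strand: gttttgtgcagttcaagtttcatacaaata
Vipr1, chr9:121581964-121582023, + strand: tattgtttatcctgtatttttgcattaatt
Vipr1, chr9:121579630-121579689, + strand: ttatagcgataatggcttctaatccaaact
P2ry2, chr7:108145553-108145612, - strand: aaaattaccaatacaaaggcgaacccattg
P2rx4, chr5:123178983-123179042, + strand: tgacctaggaccaaacATTAAAgaaaataa
P2rx7, chr5:123134194-123134253, + strand: ctaaactcttcctaatttcgtgtaagggtt
P2rx7, chr5:123105174-123105233, + strand: tcacaaaattaatgttagagtttcttttag
The coordinates are those in the scanner files, on mm9. Exon and untranslated region annotation of that build was not used here.

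The unit of every level below is the log2 signal of a probe minus the 75th percentile of its array, so that 0 is the 75th percentile. This percentile was 34.0 and 48.9 units of signal in stem cells, against 84.2 and 71.1 in non-stem cell epithelia. Between 35.7% and 42.3% of spots were well above background on each array and 0 spots were saturated. Arrays of 1 group correlated across genes at 0.986 and 0.992, and arrays of different groups at 0.923 to 0.935. A difference is stem cells minus non-stem cell epithelia, tested with limma and called at an adjusted p of 0.05 over all genes. By this rule 31.1% of all tested genes were called, 14.3% higher and 16.7% lower in stem cells. The 4 arrays shared a slide and a scan, and position on the slide cannot be told apart from the group.

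Of the 8 tested receptor genes, 1 was higher in stem cells, 3 were lower and 4 were not called. The lower genes were Chrm3, P2rx4 and Vipr1, and the higher gene was P2ry2. The called share was 50% of 8 genes, beside 31.1% of all genes. The median log2 difference over the 8 genes was -0.64, beside -0.01 over all genes tested. The arrays of the 2 groups did not overlap for 7 of the 8 genes, 2 higher and 5 lower in stem cells, and this held for 71.1% of all genes, 35.1% higher and 36.1% lower. Without non-stem cell epithelia replicate 1 the calls were 0 higher and 0 lower (10.8% of all genes called), and without non-stem replicate 2 they were 0 and 2 (7.69%). Without stem cells replicate 2 they were 1 and 5 (38% of all genes). With so few genes these shares are a description and set the receptors apart from nothing.

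**Figure D1:**
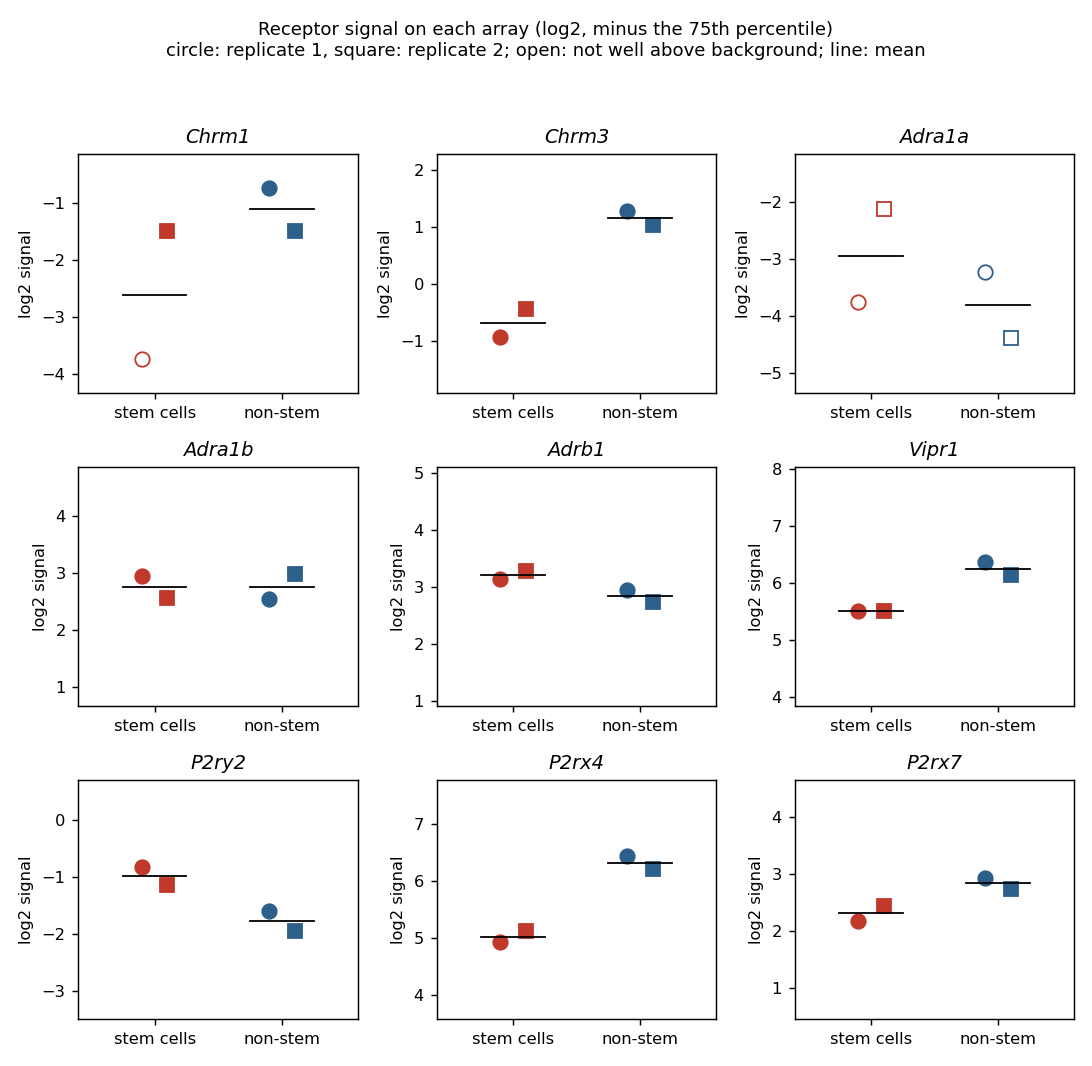
Log2 signal (minus the array's 75th percentile) of each receptor gene on each array, for the brightest tested probe or, for Adra1a, its only probe. Stem cells are on the left and non-stem cell epithelia on the right, open symbols were not well above background and lines are means; each panel has its own vertical range. The groups stand apart most widely for Chrm3, whose means were -0.68 in stem cells, against 1.17 in non-stem cell epithelia.

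Chrm3, the M3 receptor that carries most of the cholinergic drive to salivary fluid, had the largest fall among the called receptors. Its log2 signal was -0.92 and -0.43 in stem cells, against 1.30 and 1.05 in non-stem cell epithelia. All 4 arrays were well above background, and both stem cell arrays lay below both non-stem arrays. The means were -0.68 ± 0.35 in stem cells, against 1.17 ± 0.18 in non-stem cell epithelia (SD, n = 2 arrays each). Chrm3 was 3.60-fold lower in stem cells, with a log2 difference of -1.85 ± 0.22 (SE; 95% interval -2.40 to -1.29; limma adjusted p = 0.0039). The adjusted p was 0.051 without non-stem cell epithelia replicate 1, with a difference of -1.72. With another background correction, normexp, the difference was -1.0 and stayed past the threshold.

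Chrm1, the M1 receptor, was close to background and gave no call. Its brighter probe, at chr19:8758011-8758070, read -3.74 and -1.49 in stem cells, against -0.74 and -1.48 in non-stem cell epithelia. The lower of the stem cell values was not well above background, and the other one lay next to non-stem replicate 2. The log2 difference was -1.51 ± 0.73 (SE), with a 95% interval of -3.34 to 0.32 and an adjusted p of 0.17, so its interval spans both no difference and one as wide as that of Chrm3. Without stem cells replicate 2 the difference was -2.63 with an adjusted p of 5.0e-14, and that value rests on the 1 array where Chrm1 was not well above background. Without stem cells replicate 1 the difference was -0.39, and with normexp it was -0.013. The other Chrm1 probe, at chr19:8755342-8755401, was not well above background on any of the 4 arrays.

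The 3 adrenergic genes gave no call. Adra1a, an alpha-1 receptor, read well above background on none of the arrays and was not tested. Its probe at chr14:67352013-67352072 read -3.76 and -2.13 in stem cells, against -3.23 and -4.40 in non-stem cell epithelia, which are values without a usable order. Adra1b, another alpha-1 receptor, had a probe at chr11:43589067-43589126 that was well above background on all 4 arrays. It read 2.96 and 2.57 in stem cells, against 2.55 and 2.98 in non-stem cell epithelia, so the groups overlapped fully. Its log2 difference was -0.00 ± 0.23 (SE) with a 95% interval of -0.58 to 0.57, so differences within that interval, in either direction, remain possible. A second Adra1b probe, at chr11:43588147-43588206, read well above background on none of the arrays.

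Adrb1, the beta-1 receptor, had a pair of probes that read in opposite directions, neither of them past the threshold. The brighter probe read 3.15 and 3.29 in stem cells, against 2.95 and 2.73 in non-stem cell epithelia. Its log2 difference was 0.38 ± 0.17 (SE; 95% interval -0.03 to 0.80; adjusted p = 0.14). With normexp it was -0.041, and with the percentile over detected probes it was 0.52 and called (adjusted p = 0.048). With an intensity trend and robust variances the difference of 0.38 was also called (adjusted p = 0.034). The probe in the coding sequence, printed above, read -0.37 and 0.23 in stem cells, against 0.34 and 0.59 in non-stem cell epithelia. Its log2 difference was -0.53 ± 0.25 (SE; adjusted p = 0.16 in the fit of all probes). Stem cells were thus higher on both arrays by 1 probe and lower on both arrays by the other. The mean of the 2 probes gave -0.076, and no direction can be given for Adrb1. Opposite signs were also seen in 1313 of the 3919 genes that had more than 1 tested probe.

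Vipr1, the receptor VPAC1 that binds VIP and raises cyclic AMP, was lower in stem cells by both of its probes. The brighter probe read 5.51 and 5.52 in stem cells, against 6.37 and 6.14 in non-stem cell epithelia. The stem cell arrays almost coincided and lay below both non-stem arrays, with means of 5.51 ± 0.01 in stem cells, against 6.25 ± 0.16 in non-stem cell epithelia (SD, n = 2 arrays each). The log2 difference was -0.74 ± 0.16 (SE; 95% interval -1.15 to -0.34; adjusted p = 0.023), which is 1.67-fold lower. The second probe read -0.89 and -0.43 in stem cells, against 0.34 and 0.24 in non-stem cell epithelia, again with no overlap. Its log2 difference was -0.95 ± 0.21 (SE; adjusted p = 0.026 in the fit of all probes), where 28.9% of probes were called. The call of the brighter probe was lost without non-stem replicate 1 (adjusted p = 0.12) and without non-stem replicate 2 (adjusted p = 0.084), with differences of -0.63 and -0.86. With normexp the difference was -1.16, and it was called.

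**Figure D2:**
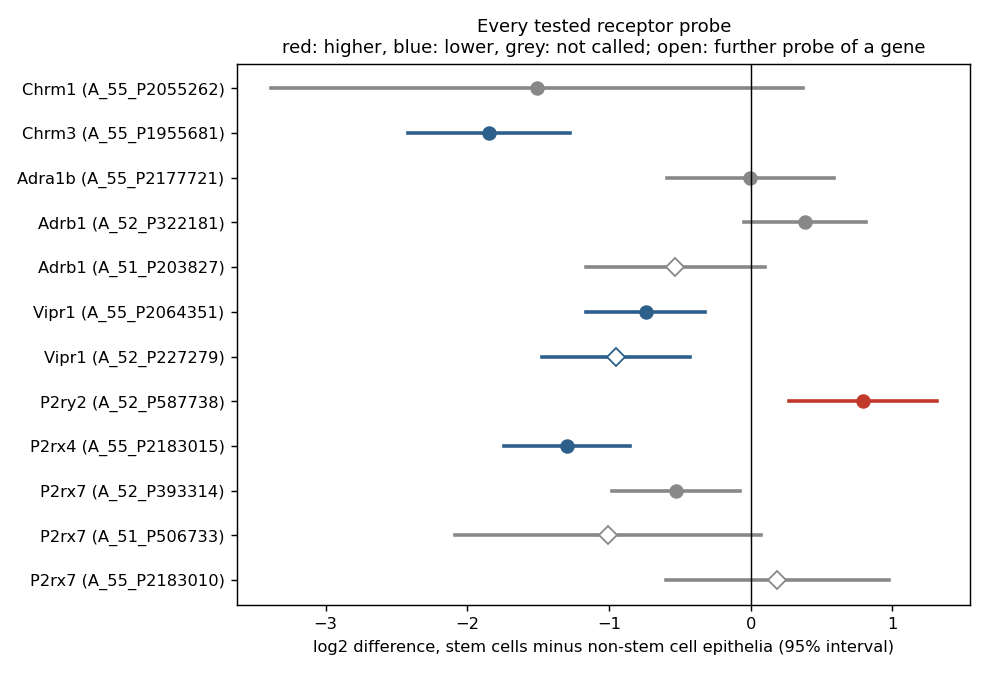
Log2 difference, stem cells minus non-stem cell epithelia, of the 12 tested receptor probes, each with its 95% interval from the fit of all probes. Chrm3, P2rx4, both Vipr1 probes and the P2rx7 probe of variant 1, which was not called, lie below 0 with their intervals, P2ry2 lies above 0, and the Adrb1 probes lie on opposite sides.

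P2ry2, which encodes a G protein-coupled receptor for ATP and UTP, was the receptor gene that was higher in stem cells. Its log2 signal was -0.83 and -1.13 in stem cells, against -1.59 and -1.95 in non-stem cell epithelia. All 4 arrays were well above background, and both stem cell arrays lay above both non-stem arrays. The log2 difference was 0.79 ± 0.20 (SE; 95% interval 0.28 to 1.30; adjusted p = 0.036), or 1.73-fold higher. P2ry2 was dim, with non-stem values below the Chrm1 values that were well above background (-1.49, -0.74 and -1.48). The lowest levels well above background on the non-stem arrays were -2.70 and -2.66. The signals before the shift by the 75th percentile were 19.2 and 22.4 in stem cells, against 27.9 and 18.5 in non-stem cell epithelia, so they overlapped, and the difference is one relative to the rest of each array. The call was lost with quantile normalization (difference 0.69, adjusted p = 0.053), without non-stem replicate 1 (0.97, adjusted p = 0.083) and without non-stem replicate 2 (0.62, adjusted p = 0.19). With normexp the difference was 0.40 and was called.

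P2rx4, an ATP-gated channel found in many epithelia, was lower in stem cells. Its log2 signal was 4.93 and 5.13 in stem cells, against 6.44 and 6.22 in non-stem cell epithelia. The groups were separated by over 1 log2 unit, and all 4 arrays were well above background. The means were 5.03 ± 0.14 in stem cells, against 6.33 ± 0.16 in non-stem cell epithelia (SD, n = 2 arrays each). The log2 difference was -1.30 ± 0.17 (SE; 95% interval -1.73 to -0.87; adjusted p = 0.0053), which is 2.46-fold lower. The adjusted p was 0.053 without non-stem replicate 1, where the difference was -1.19.

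P2rx7, the ATP-gated channel that opens only at high ATP and is best known from macrophages, was not called by any of its 3 probes. The probe the array assigns to transcript variant 1 read 2.18 and 2.43 in stem cells, against 2.93 and 2.74 in non-stem cell epithelia. Its log2 difference was -0.53 ± 0.17 (SE; 95% interval -0.97 to -0.09), with an adjusted p of 0.071. The groups did not overlap. Without stem cells replicate 2 the difference was -0.66 with an adjusted p of 0.031, and with normexp it was -0.76 with an adjusted p of 0.0024. The probe that crosses an intron read -2.74 and -1.44 in stem cells, the first of these not well above background, and -1.09 and -1.07 in non-stem cell epithelia (adjusted p = 0.14 in the fit of all probes). The probe assigned to variant 4 read 0.02 and -0.72 in stem cells, against -0.29 and -0.79 in non-stem cell epithelia, which overlapped (adjusted p = 0.68). Of the white blood cell markers, Ptprc, Cd68, Lyz2 and Adgre1 read well above background on none of the arrays. Itgam, Cd14, Csf1r, Cd74 and Cd3e were well above background on all 4 arrays. Tyrobp, Fcer1g and Cd79a were so on 1 stem cell array and 2 non-stem arrays. The summed linear level of all 12 white blood cell markers was 85.5 and 67.6 in stem cells, against 42.9 and 48.9 in non-stem cell epithelia. Most of each sum was Itgam alone, at log2 levels of 6.15 and 5.76 in stem cells, against 5.01 and 5.18 in non-stem cell epithelia. Of the 8 tested markers 1 was higher (Itgam) and 0 lower. At an unadjusted p of 0.05 by limma these counts were 2 and 0. The part of these markers in the P2rx7 values was not tested.

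Genes whose centred levels over the 4 arrays lay closest to each receptor were listed as a description. Over 10021 named genes measured on all arrays, the nearest to Chrm3 were Ly6g6e at a Euclidean distance of 0.060 log2 units and Gorasp1 at 0.10. Those nearest to P2rx4 were Mettl9 and Txndc11, at 0.029 and 0.030, and those nearest to Vipr1 were Odc1 and Atxn1, at 0.036 and 0.044. The nearest to P2ry2 were Adamts10 and Ppfibp1, at 0.059 and 0.066. Gpank1 and Morc2a lay nearest to P2rx7, Cggbp1 and Rpl36a to Adrb1, and Ptges2 and Spsb1 to Adra1b. With only 4 arrays in 2 groups, many genes share such a pattern.

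The promoters of the called receptors are shown because Chrm3, Vipr1 and P2rx4 fell and P2ry2 rose. RefSeq entries of GRCm38.p6 were matched by symbol for 7 of the 9 genes, and each line gives the 250 bases before the start of the gene, on its own strand. P2ry2 has 2 entries and the first is given. The capitals mark TGACG, the core of the cyclic AMP response element, and GGGCGG, the GC box, each searched on both strands. CANNTG, the E box, was searched too and is left in lower case.
Chrm3, chr13:10360804-10361053 (- strand): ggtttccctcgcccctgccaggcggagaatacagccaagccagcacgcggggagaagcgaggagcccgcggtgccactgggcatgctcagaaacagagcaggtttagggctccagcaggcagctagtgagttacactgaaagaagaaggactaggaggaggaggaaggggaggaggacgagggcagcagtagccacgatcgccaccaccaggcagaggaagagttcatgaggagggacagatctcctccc
Vipr1, chr9:121642466-121642715 (+ strand): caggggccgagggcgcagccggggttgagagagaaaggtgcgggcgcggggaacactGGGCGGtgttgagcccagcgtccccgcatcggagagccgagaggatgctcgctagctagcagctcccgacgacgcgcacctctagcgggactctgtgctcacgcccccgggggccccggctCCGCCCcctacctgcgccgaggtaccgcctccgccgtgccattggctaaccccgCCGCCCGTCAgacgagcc
P2rx4, chr5:122707294-122707543 (+ strand): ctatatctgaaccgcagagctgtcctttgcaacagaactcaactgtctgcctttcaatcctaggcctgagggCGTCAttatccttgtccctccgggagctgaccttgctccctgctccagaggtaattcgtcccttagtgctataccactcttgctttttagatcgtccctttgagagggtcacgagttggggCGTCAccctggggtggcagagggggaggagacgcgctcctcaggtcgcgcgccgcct
P2ry2, chr7:101012054-101012303 (- strand): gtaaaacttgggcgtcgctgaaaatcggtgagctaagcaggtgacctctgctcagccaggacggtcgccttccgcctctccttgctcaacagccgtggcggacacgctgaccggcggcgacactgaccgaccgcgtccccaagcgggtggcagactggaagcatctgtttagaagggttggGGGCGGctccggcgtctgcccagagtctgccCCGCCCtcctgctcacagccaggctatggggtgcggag
TGACG was found 2 times in the window of P2rx4, 1 time in that of Vipr1, where it overlaps a GC box, and 0 times in those of Chrm3 and P2ry2. GGGCGG was found 3 times in Vipr1, 2 times in P2ry2 and 0 times in the others. CANNTG was found 2 times in P2ry2, 1 time in P2rx4 and 0 times in the others. Of all 32851 windows of this length, 17.8% held TGACG, 32.7% held GGGCGG and 66.2% held CANNTG. A match is a run of letters and not a binding site.

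The other genes of these pathways were followed in 7 lists of 120 genes in all, of which 72 were tested. In stem cells 13 were higher and 20 lower, and 39 were not called, so 45.8% were called beside 31.1% of all genes. Some called genes, among them Vipr2, Pde3b, Enpp2 and Slc18a3, were well above background on neither array of 1 group. Their differences give only bounds. With the filter on all 4 arrays, which these did not pass, 11 were higher and 17 lower, beside 39.5% of all genes called. The calls were 2 higher and 4 lower without non-stem cell epithelia replicate 1, and 1 and 4 without non-stem replicate 2. The adjusted p of the called genes lay between 0.00024 and 0.040. Among 23 other receptors of the same families, 7 were tested, with 1 higher and 3 lower, a median log2 difference of -0.36, and 16 not well above background on any array. None of the 3 lower calls was made with normexp, where 2 were higher and 0 lower. The filter on all 4 arrays gave 1 higher and 0 lower, but the probes behind the 3 lower calls did not pass that filter. P2ry1, a G protein-coupled receptor for ADP, rose by 0.90 ± 0.15 (SE). The ATP-gated channels P2rx3 and P2rx1 fell by 1.14 ± 0.20 and 0.86 ± 0.15, and each was well above background on 1 of the 2 stem cell arrays. Vipr2, the other VIP receptor, was not well above background in stem cells, and a bound put it 1.47-fold lower there. This bound sets the mean of the non-stem arrays against the stem cell arrays. Each stem cell array counts at the probe's level or, if higher, at the lowest level well above background. On stem cells replicate 1 that lowest level was -1.81, above the non-stem mean of -1.91, so the bound rests on stem cells replicate 2. There it was -3.10, while Adra1a at -2.13 was not well above background, so 1.47-fold is not a strict minimum. The genes of the list with the highest signal that were not called were P2rx2 (-0.36) and Adra2b (-0.06).

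Among 19 receptors for other transmitters of gland nerves and for adenosine, 4 were tested, with 1 higher and 2 lower. Ramp1, a partner protein of the calcitonin gene-related peptide receptor, fell by 1.51 ± 0.17 (SE), and Sctr, the secretin receptor, fell by 0.97 ± 0.21. Tacr2, a receptor for tachykinins, rose by 0.77 ± 0.20, and Adora1, an adenosine receptor, had a difference of -0.52 that was not called. Of 11 genes that make or handle transmitters and peptides, 5 were tested. Slc18a3, the vesicular acetylcholine transporter, was well above background on neither non-stem array. The bound used for Vipr2, with the groups exchanged, put it 2.47-fold higher in stem cells. The lowest level well above background on non-stem replicate 2 was -2.66. The second Adra1b probe, at -2.60 there, was not well above background, so 2.47-fold is not a strict minimum. By limma 0 of these genes were lower, at an unadjusted p of 0.05 too, and the differences of Bche (0.27) and Tac1 (0.38) were not called.

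Genes for proteins downstream of the receptors were called in both directions. Of 18 tested genes of Gq signalling and calcium release, 3 were higher and 4 lower, with a median of -0.27. Over all genes tested, 14.3% were called higher and 16.7% lower. With normexp the calls were 1 higher and 9 lower, and those over all 17362 genes were 1894 and 4590. Atp2a3, a calcium pump of the endoplasmic reticulum, fell by 1.42 ± 0.17 (SE), Prkca, a calcium-dependent protein kinase C, by 1.08 ± 0.18 and Gna11, a Gq class alpha subunit, by 0.81 ± 0.16. Gna14, another alpha subunit of that class, rose by 0.77 ± 0.16. The differences of Itpr2 (0.33), a calcium release channel, and Plcb4 (-0.23), a phospholipase C, were not called.

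Of 18 tested genes of Gs signalling and cyclic AMP, 4 were higher and 6 lower, with a median of -0.24. Called shares over all genes were 14.3% higher and 16.7% lower. With the percentile over detected probes the list's calls were 5 and 4 (3301 and 2265 of all genes). With normexp they were 2 and 7 (1894 and 4590 of all genes). Rapgef3, the cyclic AMP-activated exchange factor Epac1, fell by 2.21 ± 0.18 (SE), or 4.63-fold. Pde3b, a phosphodiesterase, was not well above background in stem cells and was 8.70-fold lower there by the bound used for Vipr2. Prkar2a, a regulatory subunit of protein kinase A, fell by 0.88 ± 0.17, while Prkar1b, another regulatory subunit, rose by 1.20 ± 0.16. Adcy9 (0.36), an adenylyl cyclase, and Prkar1a (-0.33) were not called. None of the 7 receptor kinases and arrestins was called, with 0 higher and 1 lower at an unadjusted p of 0.05 by limma and the same counts of calls with normexp, and with Arrb1 at 0.09 and Grk3 at -0.36.

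Of 13 tested genes for the release, breakdown and uptake of extracellular ATP and its products, 3 were higher and 5 lower, with a median of -0.05. Beside this, 14.3% of all tested genes were called higher and 16.7% lower. Slc17a9, the transporter that loads ATP into secretory vesicles, fell by 3.99 ± 0.16 (SE), or 15.9-fold, and Slc28a3, a nucleoside transporter, fell by 2.06 ± 0.24. Panx1, a membrane channel that can release ATP, rose by 1.72 ± 0.22. Enpp2, the enzyme autotaxin, was well above background on neither non-stem array. By the bound used for Slc18a3, not a strict minimum, it was 2.48-fold higher in stem cells. Enpp3 (-0.05) and Entpd3 (0.24), enzymes that cut extracellular nucleotides, were not called.

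**Figure D3:**
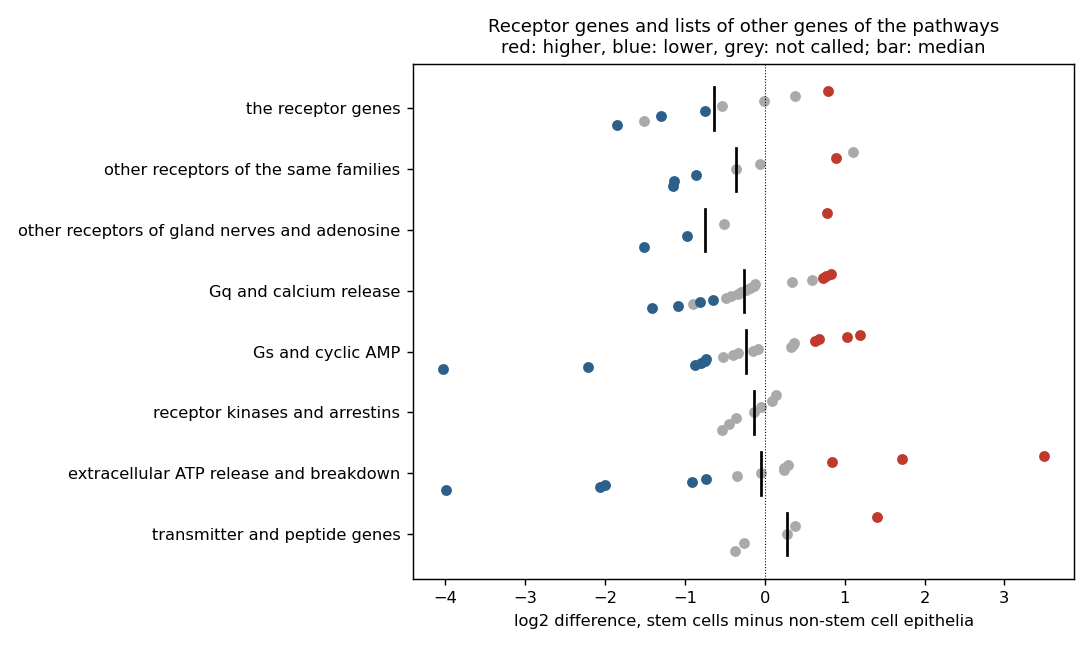
Log2 difference, stem cells minus non-stem cell epithelia, of each tested receptor gene and of each tested gene of the 7 lists, with bars at the medians. The receptors' median was -0.64, and the lowest point of the list for extracellular ATP is Slc17a9 at -3.99. Points of genes not well above background in 1 group, such as Enpp2 and Pde3b, are drawn at their measured values, for which the text gives bounds.

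Markers of the epithelial cell types also differed between the groups, in directions that depended on the cell type. Of 16 acinar cell markers 9 were lower and 0 higher in stem cells (11 and 0 at an unadjusted p of 0.05 by limma), and their summed linear level was 8121 and 7604 in stem cells, against 13915 and 14936 in non-stem cell epithelia. Of 16 tested granular tubule and duct markers 8 were higher and 1 lower, with sums of 2456 and 2432 in stem cells, against 1008 and 972 in non-stem cell epithelia. Of 11 tested basal duct and myoepithelial markers 6 were higher and 0 lower (7 and 0 at an unadjusted p of 0.05 by limma), with sums of 215 and 218 in stem cells, against 102 and 105 in non-stem cell epithelia. The higher ones were Krt5, Krt14, Krt15, Krt17, Cdh3 and Mylk. Trp63 (0.56) was not called, nor were the contractile genes Acta2 (-0.105), Myh11 (-0.21), Cnn1 (-0.36) and Tagln (0.05). All 4 erythroid markers were lower in stem cells, with sums of 39.0 and 39.4 there and of 160.7 and 199.5 in non-stem cell epithelia. Of the other lists, 4 of 9 endothelial markers were tested with 1 higher and 1 lower, and 4 of 10 nerve and Schwann cell markers likewise with 1 higher and 1 lower. Of the fibroblast markers 2 of 6 were tested with 1 higher, and of the smooth muscle and pericyte markers 1 of 5 with no call. Of the mast cell markers 2 of 5 were tested, Tpsb2 and Kit, and both were higher. The other mast cell markers, Cpa3, Mcpt4 and Cma1, read well above background on none of the arrays. At an unadjusted p of 0.05 by limma, 1 fibroblast marker was lower and 1 smooth muscle marker higher. These calls stand beside 14.3% of all tested genes called higher and 16.7% called lower. No share over all genes was counted at an unadjusted p of 0.05 by limma. The part of these marker shifts in the receptor values was not tested. In sorted populations measured in bulk, fewer cells of a type and less RNA per cell cannot be told apart.

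Across the 15 other settings, which repeated the comparison with other processing or with 1 array left out, the called receptors kept their direction. In most settings this was fixed in advance. Settings that changed only the filter, the variances or a block left the difference itself unchanged. Groups that do not overlap cannot change direction when 1 array is left out. Chrm3 ranged between -2.09 and -1.0 and missed the threshold in 1 setting. P2rx4 ranged between -1.70 and -1.16 and missed it in 2, Vipr1 ranged between -1.16 and -0.61 and missed it in 3, and P2ry2 ranged between 0.40 and 0.97 and missed it in 5. P2rx7, not called as reported, ranged between -0.76 and -0.40 and passed it in 4. With no filter on dim probes, which raised the number of genes tested to 36280, the adjusted p was 0.12 for Vipr1, 0.12 for P2ry2 and 0.060 for P2rx4.

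**Figure D4:**
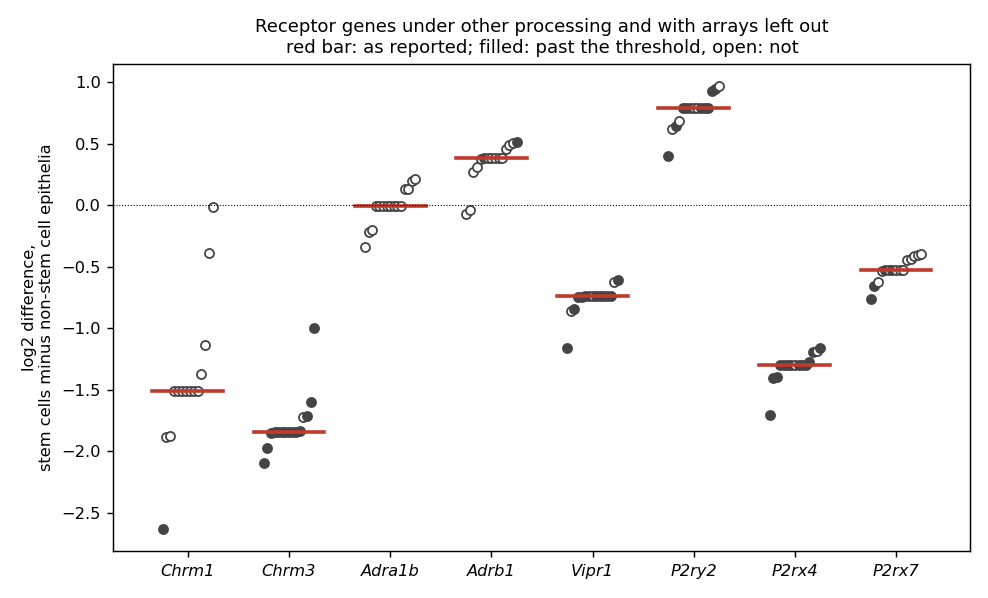
Log2 difference, stem cells minus non-stem cell epithelia, of the 8 tested receptor genes under each other setting (circles, filled where past the threshold) and as reported (red bars). Chrm3, P2rx4 and Vipr1 stay below 0 and P2ry2 above it, while the circles of Adra1b and Adrb1 lie on both sides of 0.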

How the data were processed

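RNA was measured on 4 one-colour Agilent arrays, 2 per group, after column purification, amplification and Cy3 labelling, per the labels' protocols. Spot intensity in the deposited scanner files is linear and was background-corrected by Feature Extraction 10.7.3.1, per the file headers. The submitters' processing notes name version 9.1, and the difference was not resolved. The deposited series table holds log2 values of the authors, and its scale and direction were settled by its differences between arrays, which had a correlation of 1 with the scanner files'. The baseline each probe was centred on in it stays unknown, with column medians of -0.27 and -0.55 in stem cells, against -0.83 and -0.75 in non-stem cell epithelia.

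The processed signal was taken to log2 and shifted by each array's 75th percentile over non-control spots. Control and outlier spots were dropped and repeated spots averaged. Tests took probes well above background on 2 or more of the 4 arrays and, per gene, the brightest of these. RefSeq (GRCm38.p6) named 26582 probes by accession, and 29099 kept the array's name. The groups were compared by limma 3.58.1 under R 4.3.3, two-sided, adjusted by Benjamini-Hochberg over all genes, with a threshold of 0.05 and 5.46 degrees of freedom per gene. The small number of arrays limits the precision. The fit was tested on simulated data. All probes of the receptors were also fitted among 22642 tested probes.

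The members and lists were chosen with earlier results of these data known. Named were all 9 receptors and, from each list, up to 4 called genes of smallest p and up to 2 uncalled ones of highest signal. Named too were the 2 genes nearest in pattern to each receptor measured on all arrays, and markers beside a result. The alternatives were quantile normalization, normexp with an offset of 50, the deposited values, the percentile over detected probes, no filter, robust variances with an intensity trend, a filter on all 4 arrays, the mean of probes, every probe, replicate blocks and leaving out each array.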

Additional observations from a re-analysis of the deposited data

Results flagged for a closer look

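The spike-in control spots, synthetic RNA added for quality control and outside the comparison of genes, differed between the groups. Their median log2 difference, stem cells minus non-stem cell epithelia, was 2.25 after the shift by the 75th percentile, with a range of 0.65 to 2.60 over 10 spike-ins, and 1.33 before it. For all 10, either stem cell array read above either non-stem array. No receptor level was scaled to the spike-ins, and their part in the receptor differences was not tested.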

How the results depend on the processing

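The receptors' calls were 1 higher and 3 lower. The higher count was 0 with quantile normalization, 2 with the percentile over detected probes, 0 with no filter, 2 with an intensity trend and robust variances, and 0 to 1 with 1 array left out. The lower count was 1 with no filter and 0 to 5 with 1 array left out, at 0 without non-stem cell epithelia replicate 1, 2 without non-stem replicate 2 and 5 without stem cells replicate 2. Adra1b (-0.00) turned to 0.13 with quantile normalization, 0.13 with the percentile over detected probes, and ranged between -0.22 and 0.21 with 1 array left out. Adrb1 (0.38) turned to -0.041 with normexp and -0.076 with the mean of probes. Over all genes, 2488 higher and 2903 lower became 1894 and 4590 with normexp, 3301 and 2265 with the percentile over detected probes and 820 and 741 with no filter. They ranged over 593 to 3013 and 743 to 3583 with 1 array left out, lowest without non-stem replicate 2 and next lowest, at 889 and 991, without non-stem replicate 1. The share of calls that were higher was 46.2%, 29.2% with normexp and 59.3% with the percentile over detected probes, which moved the median gene by -0.25 and 0.13. The lists' 13 higher and 20 lower became 3 and 6 with no filter, and 1 to 14 and 4 to 23 with 1 array left out. With 1 array left out the lone array is assumed to vary like the other group. The causes were not tested. Same-numbered arrays deviated together at -0.10 across genes. The labels do not say whether the numbers pair samples, and this correlation cannot settle it. The replicate block gave 2370 and 2915 genes and 1 and 3 receptors, and changed no receptor's call. Crossed numbers as a block, chosen after seeing the data, gave 2049 and 2367 genes, and 0 and 3 receptors. Signal over background limits Chrm1, Adra1a and the second Adra1b probe. It also limits P2ry2, which was dim though well above background on all 4 arrays.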
